A study of Mus musculus with 2 samples.

Results

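The mir-28 family consists of related mouse microRNAs made from 3 hairpins, mir-28a, mir-151 and mir-708. Members were taken by name as every deposited row for an arm of one of these hairpins, which gave 6 mature miRNAs of 717 analysed, the 5p and the 3p arm of each hairpin. The family was picked with values of these libraries already known, so all levels and ratios below describe the libraries and none was tested. Small RNA was sequenced from 1 library of tumor-associated macrophages (TAMs) and 1 library of spleen macrophages (SMs), both from BALB/c mice. TAMs came from mammary tumors of 4T1 cells, a metastatic mouse breast carcinoma line, injected into the fat pad of female mice at 8 weeks of age, and the tumors were harvested 3 weeks later. They were selected from the digested tumor with anti-CD11b beads, which also take up monocytes, neutrophils and NK cells, after lysis of red blood cells. SMs came from naïve healthy mice, and the sources used here state neither how they were selected nor how many mice stood behind a library. The study reports that purity and viability of the sorted cells were checked by flow cytometry with CD11b and a dead-cell stain. Its text gives no percentage for this check. Each library was made from 3 µg of RNA, and the labels list no treatment for either group.

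A microRNA guides Argonaute proteins to messenger RNAs mainly through its seed, bases 2 to 8 from the 5′ end, and the messenger RNAs it pairs with are repressed. Each hairpin carries a mature sequence in either strand of its stem, the 5p and the 3p arm, and cells can load either or both. The mir-28, mir-151 and mir-708 hairpins are descended from LINE-2 transposable elements, in which a pair of inverted copies folds back into a stem. In earlier work miR-28 restrained germinal center B cells and B cell lymphoma, miR-151 was co-expressed in human liver cancer with its host gene for focal adhesion kinase, and mouse miR-708 was induced by the stress factor CHOP.

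The mature sequences are printed as the deposited table gives them, in DNA letters from 5′ to 3′ with the seed in capitals, since the seeds decide which members can share targets.
mmu-miR-28a-5p: aAGGAGCTcacagtctattgag
mmu-miR-708-5p: aAGGAGCTtacaatctagctggg
mmu-miR-151-5p: tCGAGGAGctcacagtctagt
mmu-miR-28a-3p: cACTAGATtgtgagctgctgga
mmu-miR-708-3p: cAACTAGActgtgagcttctag
mmu-miR-151-3p: cTAGACTGaggctccttgagg
miR-28a-5p and miR-708-5p had the same seed, AGGAGCT, and no other row of the table had it. The seeds of the other 4 members were each found in no second row. miR-151-5p also held the letters AGGAGCT, but at bases 4 to 10, so its seed was another one, CGAGGAG. On the given strand these letters stood in 5 of the 717 deposited sequences (0.697%), the other two being miR-28c, where they began at base 1, and miR-339-5p, where they began at base 13. miR-151-5p and miR-28a-5p had a run of 16 bases in common, AGGAGCTCACAGTCTA, and 17 of 19 aligned bases were the same. Between miR-28a-5p and miR-708-5p 16 of 22 aligned bases were the same. Of the 3p arms, miR-28a-3p and miR-708-3p had 17 of 21 aligned bases the same. For miR-151-3p 10 of 20 were the same as miR-28a-3p and 10 of 19 the same as miR-708-3p. All pairs were aligned without gaps, placed by their longest shared run. Alignments with gaps, which could match more bases, were not made. No row outside the family except miR-28c shared 16 or more consecutive bases with a member on either strand. How reads matching several members were assigned is not stated in the sources.

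All 3 hairpins lie inside introns of protein-coding genes on the same strand in GENCODE M21 (GRCm38), where no annotated exon of the host overlaps them. The hairpins are shown with both arms in capitals, to make visible where the reads come from.
Mir28a, chr16:24827855-24827940, plus strand: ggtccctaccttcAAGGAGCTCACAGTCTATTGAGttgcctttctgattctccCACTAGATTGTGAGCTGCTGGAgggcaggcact
Mir151, chr15:73254815-73254882, minus strand: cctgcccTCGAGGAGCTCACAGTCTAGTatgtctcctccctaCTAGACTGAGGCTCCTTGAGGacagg
Mir708, chr7:96249424-96249532, plus strand: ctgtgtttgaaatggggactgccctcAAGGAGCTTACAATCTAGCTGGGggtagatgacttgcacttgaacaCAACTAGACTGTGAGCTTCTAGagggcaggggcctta
Mir28a lies in Lpp, which encodes a LIM domain protein of cell adhesion sites. Mir151 lies in Ptk2, the gene of focal adhesion kinase, and on the other strand also in an intron of the antisense gene 1700085D07Rik. Mir708 lies in Tenm4, which encodes a teneurin, a large transmembrane protein of neural development. No messenger RNA was measured, so levels of the host genes were not analysed here.

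The deposited counts are reads per mature miRNA with variants of up to 2 bases at the ends added, and TPM is that count scaled by a total per library, with no correction for length. Counts summed over the 717 rows, called known miRNA reads here, were 7333652 in TAMs and 10108834 in SMs. These were 55.0% and 65.5% of the totals behind the TPM, and 1 read was worth 0.0750 and 0.0648 TPM. Some rows outside the family had equal or nearly equal counts, such as miR-338-3p and miR-3065-5p with 2776 each in SMs. A read may therefore enter these sums more than once, and the counts of miRNAs and hairpins given below may hold repeated rows. In TAMs both arms of mir-223, a hairpin of myeloid cells, were at least 2-fold lower (1449 TPM summed in TAMs, 8430 TPM in SMs), as were both arms of mir-142, which is expressed across leukocytes (6302 against 26131 TPM), and the 7 listed epithelial miRNAs, such as miR-141-3p and miR-200c-3p, were all at least 2-fold higher (1897 against 284 TPM). Of 5 stromal miRNAs 3 were at least 2-fold higher (2617 against 2452 TPM). Both lymphocyte miRNAs (1160 against 3989 TPM) and all 4 red blood cell miRNAs were at least 2-fold lower. The red blood cell miRNAs summed to 1376 TPM in TAMs and 6022 TPM in SMs, with miR-486-5p taken by its name in the table, and to 33.6 and 667 TPM without it. No marker found was at 0 in either library, and the part of these cell types in the levels of the family was not tested. Fewer cells of a type and less RNA per cell cannot be told apart in such libraries. Intervals are exact 95% intervals from the counts and cover counting error only, and reads are not independent molecules after PCR.

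The hairpins of the family stood on opposite sides of an equal level in TAMs and SMs. Both arms of mir-708 were far lower in TAMs, both arms of mir-151 were lower and both arms of mir-28a were moderately higher. In SMs the summed levels of mir-708 and mir-28a were close, 191.6 and 201.9 TPM, whereas TAMs had 10.9 TPM of mir-708 and 303.6 TPM of mir-28a. mir-151 was the most abundant hairpin of the family in both libraries, at 1291 TPM in the TAMs library and 4038 TPM in the SMs library. The 6 members together held 21397 reads in TAMs and 68351 reads in SMs, or 0.292% and 0.676% of all known miRNA reads. Summed over the family, the level was 1606 TPM in TAMs against 4432 TPM, which gives a ratio of 0.362 for TAMs over SMs (95% interval 0.357 to 0.368). This sum mostly followed mir-151, which gave 80.4% of the family's reads in TAMs and 91.1% in SMs.

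**Figure D1:**
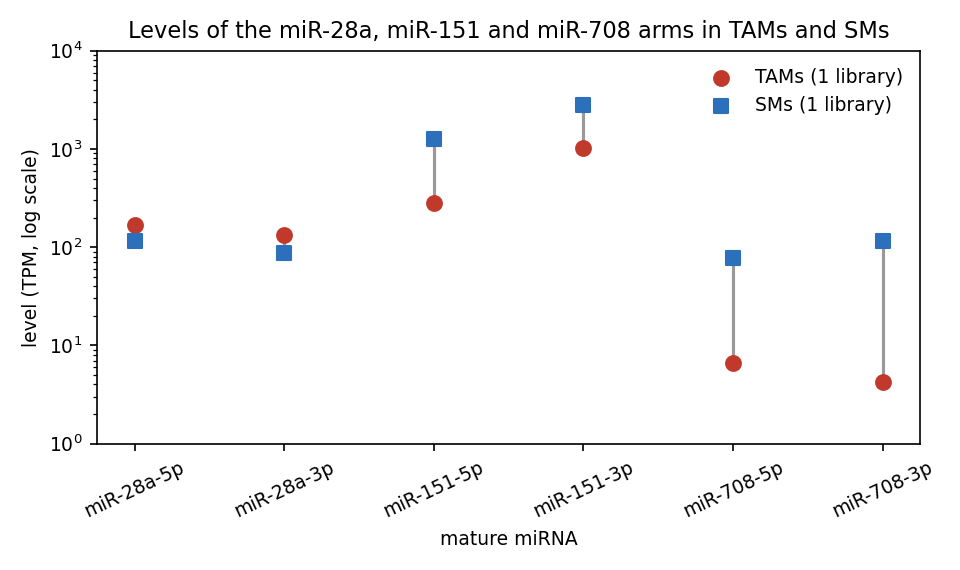
Level of each arm in TAMs (red circles) and SMs (blue squares), 1 library each, in TPM on a log axis; the grey line joins both values of an arm. The miR-28a arms are slightly higher in TAMs, the miR-151 arms lower, and miR-708-5p and miR-708-3p lie at 6.60 and 4.28 TPM in TAMs against 77.0 and 114.6 TPM in SMs.

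mir-708 differed most between the libraries. mmu-miR-708-3p had 57 reads in TAMs and 1767 reads in SMs, which is 4.28 TPM against 114.6 TPM. Its level in TAMs was 26.8-fold lower (20.6 to 35.5), and it was ranked 311th by count in TAMs and 104th in SMs. mmu-miR-708-5p, the arm with the AGGAGCT seed, had 88 reads in TAMs and 1188 reads in SMs, 6.60 TPM against 77.0 TPM. It was 11.7-fold lower in TAMs (9.39 to 14.7), ranked 263rd there and 124th in SMs. Summed over both arms, the hairpin had 145 reads in TAMs and 2955 reads in SMs and was 17.6-fold lower in TAMs (14.9 to 20.9). Both arms were still above the level that 3 counts would give, 0.225 TPM in TAMs, so mir-708 was detected in both libraries.

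mir-151 was abundant in both libraries and lower in TAMs. mmu-miR-151-3p, the leading member of the family, had 13474 reads in TAMs and 42726 reads in SMs, 1011 TPM against 2770 TPM, a level 2.74-fold lower in TAMs (2.69 to 2.79). By count it ranked 49th in TAMs and 34th in SMs. mmu-miR-151-5p had 3732 reads in TAMs and 19556 reads in SMs, 280.1 TPM against 1268 TPM, and was 4.53-fold lower in TAMs (4.37 to 4.69). It ranked 83rd in TAMs and 49th in SMs. The deficit of the 5p arm was therefore larger than that of the 3p arm, and the intervals of both ratios did not overlap.

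mir-28a ran the other way. mmu-miR-28a-5p had 2256 reads in TAMs and 1772 reads in SMs, 169.3 TPM against 114.9 TPM, a ratio of 1.47 (1.38 to 1.57). mmu-miR-28a-3p had 1790 reads in TAMs and 1342 reads in SMs, 134.3 TPM against 87.0 TPM, a ratio of 1.54 (1.44 to 1.66). The intervals of both arms overlapped, and neither arm reached 2-fold. The ranks were close in both libraries, 98th in TAMs and 103rd in SMs for the 5p arm and 110th and 120th for the 3p arm. In TAMs both miR-28a arms stood above both miR-708 arms, while in SMs miR-708-3p, at 114.6 TPM, and miR-28a-5p, at 114.9 TPM, were within counting error of each other.

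A level of 10 TPM or more in either library was reached by 264 miRNAs, and their median log2 ratio of TPM + 1, TAMs over SMs, was −0.36, so the table as a whole was shifted towards lower levels in TAMs on the authors' scale. At least 2-fold lower in TAMs were 4 of the 6 members and 86 of the 264 miRNAs (32.6%), and at least 2-fold higher were 0 members and 64 miRNAs (24.2%). The median log2 ratio of the members was −1.81. All 6 members passed the minimum of 10 TPM in SMs and 4 passed it in TAMs. The miR-708 arms passed through SMs alone, which leaves them no way to be equal or higher. The count of 4, the median of the members and the places of the miR-708 arms given next are therefore only a description. On this scale 2 of the 264 miRNAs had a lower ratio than miR-708-3p, 7 a lower one than miR-708-5p, 20 a lower one than miR-151-5p and 56 a lower one than miR-151-3p. miR-28a-5p and miR-28a-3p had 179 and 184 miRNAs below them. Measured from the median of the 264, the log2 differences were 0.91 for miR-28a-5p, 0.98 for miR-28a-3p, −1.82 for miR-151-5p, −1.10 for miR-151-3p, −3.0 for miR-708-5p and −4.10 for miR-708-3p. With totals of known miRNA reads that leave out the 10 most abundant miRNAs of TAMs or SMs the median itself moved by 0.48, and with it both miR-28a arms were at least 2-fold higher and 3 members at least 2-fold lower, miR-151-3p no longer among them.

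**Figure D2:**
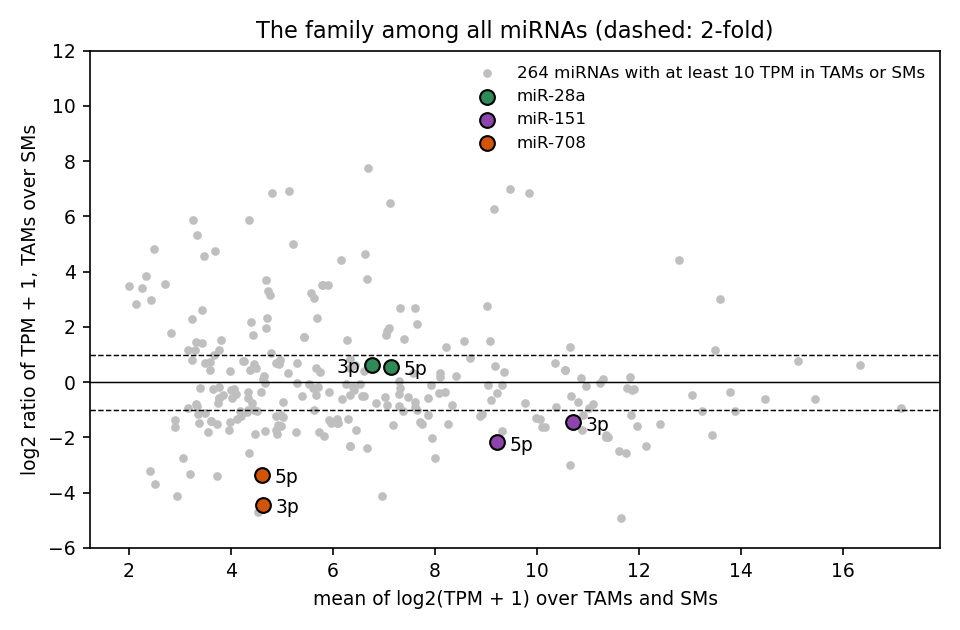
Each point is 1 of the 264 miRNAs that reached 10 TPM in either library, by its mean log2(TPM + 1) and its log2 ratio of TPM + 1, TAMs over SMs; dashed lines mark 2-fold, and the 6 arms of the family are coloured by hairpin. Both miR-708 arms are among the lowest ratios, at −3.36 and −4.45, with both miR-151 arms below the lower line and both miR-28a arms between the lines.

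Ratios between members of a library do not depend on the totals chosen. For each read of miR-28a-5p there were 0.0390 reads of miR-708-5p in TAMs and 0.670 in SMs, 17.2-fold fewer in TAMs (13.7 to 21.8). For each read of miR-28a-3p there were 0.0318 reads of miR-708-3p in TAMs and 1.32 in SMs, 41.3-fold fewer in TAMs (31.4 to 55.3). The reads of miR-151-5p for each read of miR-28a-5p were 1.65 in TAMs and 11.0 in SMs, 6.67-fold fewer in TAMs (6.21 to 7.17). For the 3p arms of the same hairpins the values were 7.53 and 31.8, 4.23-fold fewer in TAMs (3.93 to 4.56). mir-708 was also lower relative to mir-151, 2.58-fold for the 5p arms (2.07 to 3.25) and 9.78-fold for the 3p arms (7.50 to 13.0). The hairpins thus differed from each other between TAMs and SMs under any scaling of the libraries.

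The members that share a seed, miR-28a-5p and miR-708-5p, differed in opposite directions. Their summed level was 175.9 TPM in TAMs against 191.9 TPM, with a TAMs to SMs ratio of 0.917 (0.868 to 0.968), though this sum was higher in TAMs with totals of known miRNA reads, at a ratio of 1.09, or less the 10 most abundant miRNAs of TAMs or SMs, at 1.29. Its makeup was not alike. miR-28a-5p gave 96.2% of their summed reads in TAMs (95.4 to 97.0%) and 59.9% in SMs (58.1 to 61.6%), and miR-708-5p the rest. The counts include variants of up to 2 bases at the ends. A variant at the 5′ end has another seed, so reads were summed by miRNA name and not by seed.

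**Figure D3:**
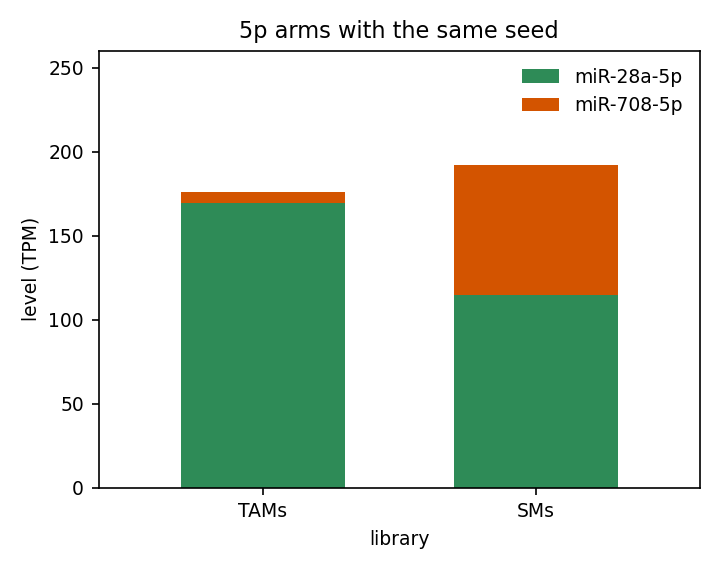
Stacked bars give the level in TPM of miR-28a-5p (green) and miR-708-5p (orange), the members with the seed AGGAGCT, in 1 library of TAMs and 1 of SMs. The whole bars are 175.9 and 191.9 TPM, while the miR-708-5p part is 6.60 TPM in TAMs and 77.0 TPM in SMs.

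Use of the arms was compared within each hairpin, where the scaling cancels. mir-28a gave 55.8% of its reads from the 5p arm in TAMs (54.2 to 57.3%) and 56.9% in SMs (55.1 to 58.7%). The 5p to 3p ratio of mir-28a in TAMs was 0.954 times that in SMs (0.868 to 1.05), an interval that holds 1. mir-151 used mainly its 3p arm in both libraries, and its 5p arm gave 21.7% of the reads in TAMs (21.1 to 22.3%) and 31.4% in SMs (31.0 to 31.8%). Its 5p to 3p ratio in TAMs was 0.605 times that in SMs (0.581 to 0.630). mir-708 gave 60.7% from the 5p arm in TAMs, 88 of 145 reads (52.2 to 68.7%), and 40.2% in SMs, 1188 of 2955 reads (38.4 to 42.0%). The major arm of mir-708 was thus the 5p arm in TAMs and the 3p arm in SMs, and its 5p to 3p ratio was 2.30 times as high in TAMs (1.61 to 3.29).

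Among 104 hairpins with at least 10 reads of each arm in both libraries, the major arm differed between TAMs and SMs in 6 (5.77%), mir-708 among them. The other 5 were mir-106b, mir-335, mir-467a, mir-467d and mir-503. The 3p arms of mir-467a and mir-467d had equal counts, 87 in TAMs and 294 in SMs, so these hairpins may not be separate cases. The 5p to 3p ratio was at least 2-fold apart in 29 of the 104 hairpins (27.9%), again with mir-708 among them. A difference in the ratio of the arms as large as that of mir-708 or larger was found in 23 hairpins, mir-708 included, and one as large as that of mir-151 in 42. Shifts of this size were therefore not rare in the table. At a minimum of 100 reads for each arm, which mir-708 does not reach in TAMs, the major arm differed in 1 of 43 hairpins.

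**Figure D4:**
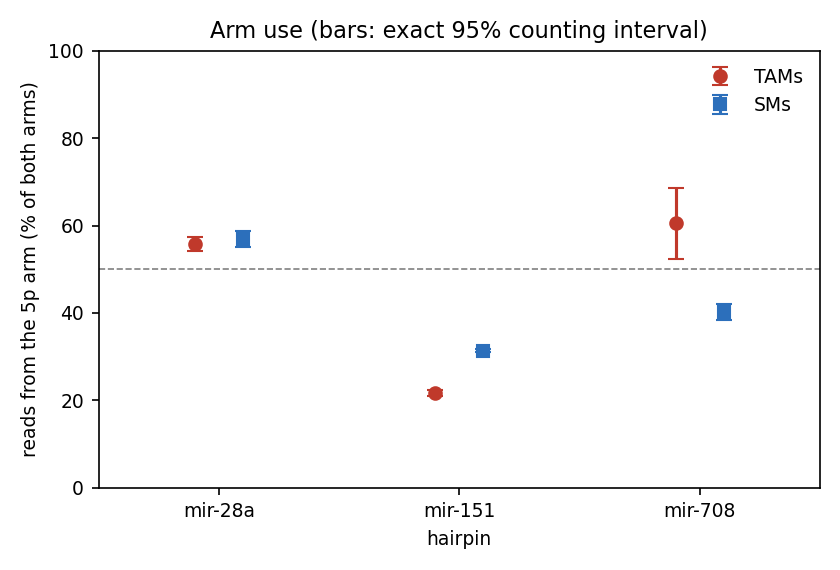
Percent of a hairpin's reads that came from its 5p arm, in TAMs (red circles) and SMs (blue squares), with exact 95% intervals for counting error; the dashed line marks equal use of both arms. mir-28a is close in both libraries, mir-151 lies lower in TAMs, and mir-708 crosses the line, from 40.2% in SMs to 60.7% in TAMs with a wide interval.

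The miRNAs nearest to each member were found by the distance between levels, log2(TPM + 1), over both libraries. miR-144-3p, a miRNA of red blood cell precursors, was nearest to miR-708-3p at a distance of 0.22, with 47 reads in TAMs and 1792 in SMs. Nearest to miR-708-5p was miR-16-1-3p, a passenger arm of the mir-15a/16-1 cluster, at a distance of 0.67, with 99 and 748 reads. miR-151-5p was nearest to miR-101a-3p (0.32), and miR-151-3p to miR-30c-5p (0.33) and miR-342-3p (0.34), the last a miRNA of lymphocytes with 1039 TPM in TAMs and 3491 TPM in SMs. miR-28a-3p was nearest to miR-484 (0.29) and miR-28a-5p to miR-106b-3p (0.42), whose levels of 159.6 and 153.5 TPM were about equal in TAMs and SMs. With only these libraries, a small distance means like levels in 2 samples and no more.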

How the data were processed

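Small RNA libraries, 1 of TAMs and 1 of SMs, were prepared with TruSeq reagents. As sequencer the study's methods give a HiSeq and its series record a GAIIX. The authors deposited counts of reads per known mature miRNA. The submitters' processing notes name Bowtie2. Its version, the miRBase release and the genome build are not stated there or in the methods. The deposited TPM is the count scaled by a total per library, 13324721 for TAMs and 15422872 for SMs. The deposited ratios, p-values and marks of the authors' own comparison were not used, and 2 rows were not analysed here.

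Libraries were matched to groups by the column headers TAMs1 and Spleenm. Members, lists and thresholds were chosen with earlier results of these data known. Ratios of TPM have exact conditional binomial 95% intervals, shares exact Clopper-Pearson intervals, and ratios of ratios exact conditional odds ratio intervals (scipy 1.17.1 with Python 3.11.15, pandas 2.3.3 and numpy 2.4.6). The 2-fold counts used TPM + 1, which understates the change of low miRNAs, and a minimum of 10 TPM in either library. The miRNAs to be named were the members, miR-28c, miR-325 and miR-421, rows with a member's seed and the 2 nearest miRNAs of each member. Of the 2 nearest, the text gives both for miR-151-3p and only the nearest for the other members. miR-339-5p and the hairpins whose major arm differed were named after their values were seen. Hairpins and positions are from GENCODE M21. Alternatives were TMM (edgeR 4.0.16) and DESeq2 1.42.0 size factors (R 4.3.3), other totals, filters, pseudocounts and thresholds. Calculations were tested on simulated counts. Plots were drawn with matplotlib 3.10.9. With 1 library per group, no p-value is given.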

Additional observations from a re-analysis of the deposited data

How the results depend on the processing

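No paired analysis was possible because TAMs and SMs have 1 library each, and no difference has a replicate check. A scaling multiplies every ratio by 1 factor, 1.06 with TMM, 1.05 with DESeq2 size factors, 1.19 with totals of known miRNA reads and 1.41 with those totals less the 10 most abundant miRNAs of TAMs or SMs. In this order the ratio of miR-151-5p was 0.234, 0.232, 0.263 and 0.311, that of miR-151-3p 0.387, 0.383, 0.435 and 0.514, and that of the summed family 0.384, 0.380, 0.432 and 0.510. With the last 2 scalings miR-28a-5p had 1.75 and 2.08 and miR-28a-3p 1.84 and 2.17, and with the last miR-708-5p had 0.121 and miR-708-3p 0.0526. The other scalings left these within their counting intervals. The summed level of miR-28a-5p and miR-708-5p had a ratio of 0.972 with TMM and turned to 1.09 and 1.29 with the last 2. The median log2 ratio of the 264 miRNAs moved by 0.25 and 0.48 with the last 2, and by at most 0.083 with the others. The last 2 gave 72 higher and 68 lower, and 87 higher and 53 lower, so the higher share of 42.7% became 51.4% and 62.1%. In place of 64 higher and 86 lower miRNAs, there were 102 higher and 115 lower with no filter, a minimum of 100 TPM gave 34 higher and 48 lower, and a 4-fold threshold gave 42 higher and 22 lower. Some checks were added after the data were seen. The 100-read minimum for arms gave 1 hairpin whose major arm differed in place of 6. Adding miR-28c, which has another seed, to the sum of miR-28a-5p and miR-708-5p gave a ratio of 0.915. The red blood cell list was also summed with miR-486-5p. Depth limits mir-708 most, with 145 reads in TAMs.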

Other observations

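Relatives outside the 3 hairpins were scarce or about equal. miR-28c, whose 20 bases all lie within miR-28a-5p, had 0 reads in TAMs, which allows up to 0.225 TPM, and 5 reads in SMs (0.324 TPM), beside 1772 reads of miR-28a-5p in SMs. miR-421-3p, another miRNA traced to a LINE-2 element, had 510 reads in TAMs and 599 in SMs, 38.3 TPM against 38.8 TPM, a ratio of 0.985 (95% interval 0.874 to 1.11). Its other arm, miR-421-5p, had 0 reads in TAMs and 12 in SMs. miR-325 was also looked for by name and had no row among the miRNAs analysed.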
